A study of Mus musculus with 6 samples.

Results

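The E2F transcription factors and the retinoblastoma proteins were followed in activated CD8+ T cells of mouse spleen, as the messenger RNA of 9 genes chosen by name: the E2F factors E2f1, E2f2, E2f3, E2f4, E2f7 and E2f8 and the pocket proteins Rb1, Rbl1 and Rbl2. All 9 are among the 47729 genes of each deposited table, and all 9 passed the minimum level for testing (a mean of 1 TPM, the authors' length- and depth-scaled transcript level, over the libraries). RNA sequencing was done on 3 libraries from cells given vehicle, whose solvent is not named in the labels, and on 3 from cells given 2 µM blebbistatin, an inhibitor of the ATPase of nonmuscle myosin II. The deposited data mark the vehicle libraries as pbs, and whether blebbistatin was given in the same solvent is not known. The exposure lasted 24 h. The labels state neither strain, age nor how the cells were activated. They also leave out if the 3 libraries of a group stem from different mice, so the p-values below speak of library-to-library spread, part of which may be technical.

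E2F factors bind DNA as dimers with a DP partner and control genes needed to enter and pass S phase. E2F1, E2F2 and E2F3 activate these genes, E2F4 acts mainly as a repressor together with a pocket protein, and the atypical factors E2F7 and E2F8 repress without DP or pocket proteins. The pocket proteins RB, p107 (gene Rbl1) and p130 (gene Rbl2) hold E2F factors in check until cyclin-dependent kinases phosphorylate them; p130 with E2F4 and the MuvB core forms the DREAM complex of resting cells, while p107 and the atypical E2F genes are themselves known E2F targets. T cells carry much p130 at rest and leave that state on activation, when E2F activators and their targets are switched on.

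The stretches upstream of 4 members are shown because these genes form pairs of relatives described together below, p107 with p130 and E2F7 with E2F8. Each is the 250 bases before the RefSeq start of the gene in GRCm38.p6, read along the gene's strand. Capitals mark matches on either strand to an E2F word (TTTCCCGC, TTTCGCGC, TTTGGCGC or TTTGCCGC), to the cell cycle homology region CHR (TTTGAA) or to a CCAAT box (CCAAT), and no 2 matches overlapped in these stretches.
Rbl1 (chr2:157204535-157204784, minus strand): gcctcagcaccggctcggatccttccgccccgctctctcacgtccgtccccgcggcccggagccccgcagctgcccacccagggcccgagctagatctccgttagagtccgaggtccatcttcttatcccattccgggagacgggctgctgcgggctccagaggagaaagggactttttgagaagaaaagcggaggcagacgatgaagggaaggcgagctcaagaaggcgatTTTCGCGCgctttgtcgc
Rbl2 (chr8:91069807-91070056, plus strand): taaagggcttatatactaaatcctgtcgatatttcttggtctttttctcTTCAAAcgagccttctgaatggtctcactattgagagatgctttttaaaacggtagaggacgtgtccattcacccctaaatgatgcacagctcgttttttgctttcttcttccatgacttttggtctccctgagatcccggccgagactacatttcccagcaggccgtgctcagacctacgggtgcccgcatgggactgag
E2f7 (chr10:110745189-110745438, plus strand): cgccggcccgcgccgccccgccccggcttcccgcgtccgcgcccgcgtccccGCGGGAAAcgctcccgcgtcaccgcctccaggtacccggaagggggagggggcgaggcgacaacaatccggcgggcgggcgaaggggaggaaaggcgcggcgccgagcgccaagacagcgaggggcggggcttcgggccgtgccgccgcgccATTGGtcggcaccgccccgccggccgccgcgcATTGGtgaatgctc
E2f8 (chr7:48881597-48881846, minus strand): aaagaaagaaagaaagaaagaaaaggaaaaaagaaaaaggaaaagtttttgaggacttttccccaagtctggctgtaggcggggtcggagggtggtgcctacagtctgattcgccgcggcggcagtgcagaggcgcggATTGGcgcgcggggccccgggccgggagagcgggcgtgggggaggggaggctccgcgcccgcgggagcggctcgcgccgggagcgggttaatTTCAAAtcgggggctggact
The Rbl1 stretch holds an E2F word 18 bases before the start, the Rbl2 stretch has none and holds 1 CHR 201 bases before it. The E2f7 stretch holds 1 E2F word and 2 CCAAT boxes, and the E2f8 stretch 1 CHR and 1 CCAAT box. Of the 9 members 7 were matched in the RefSeq promoter table, with 9 windows of 300 bases that run on to 50 bases past a start. An E2F word was in 4 of these 9 windows (of Rbl1, E2f2, E2f7 and E2f3) and in 2.26% of all 32851 windows. A CHR was in 4 of the 9 (of E2f2, E2f3, E2f8 and Rbl2) and in 17.9% of all windows, and a CCAAT box in 37.4% of all windows. The E2f1 window (chr2:154569377-154569676) lies inside the gene, so the bases before its annotated starts at 154569720 and 154569892 were not searched. The CHR of E2f2 is in a window inside the gene (chr4:136180532-136180831), at the start of the short transcript E2f2-202. A match is a description of letters, and binding was not measured.

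In the blebbistatin libraries Rbl2, the gene of p130, rose by 34.6%, while 5 E2F genes lay lower in every blebbistatin library than in any vehicle library without passing the test. Among the 9 members 1 passed and 8 did not, beside 1.82% of all 13372 tested genes that passed. An unadjusted p under 0.05 was found for 5 members, against 22.9% of all tested genes. The groups did not overlap for 8 of 9 members, 5 lower (E2f1, E2f2, E2f4, E2f7 and E2f8) and 3 higher (E2f3, Rb1 and Rbl2), while they did not overlap in 31.0% of all tested genes, 13.0% lower and 18.0% higher. The median log2 fold change was -0.12 over the 9 members and 0.03 over all tested genes. Tests were made with limma on log2(TPM + 1), which understates changes of low genes, with Benjamini-Hochberg adjustment over all tested genes.

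**Figure D1:**
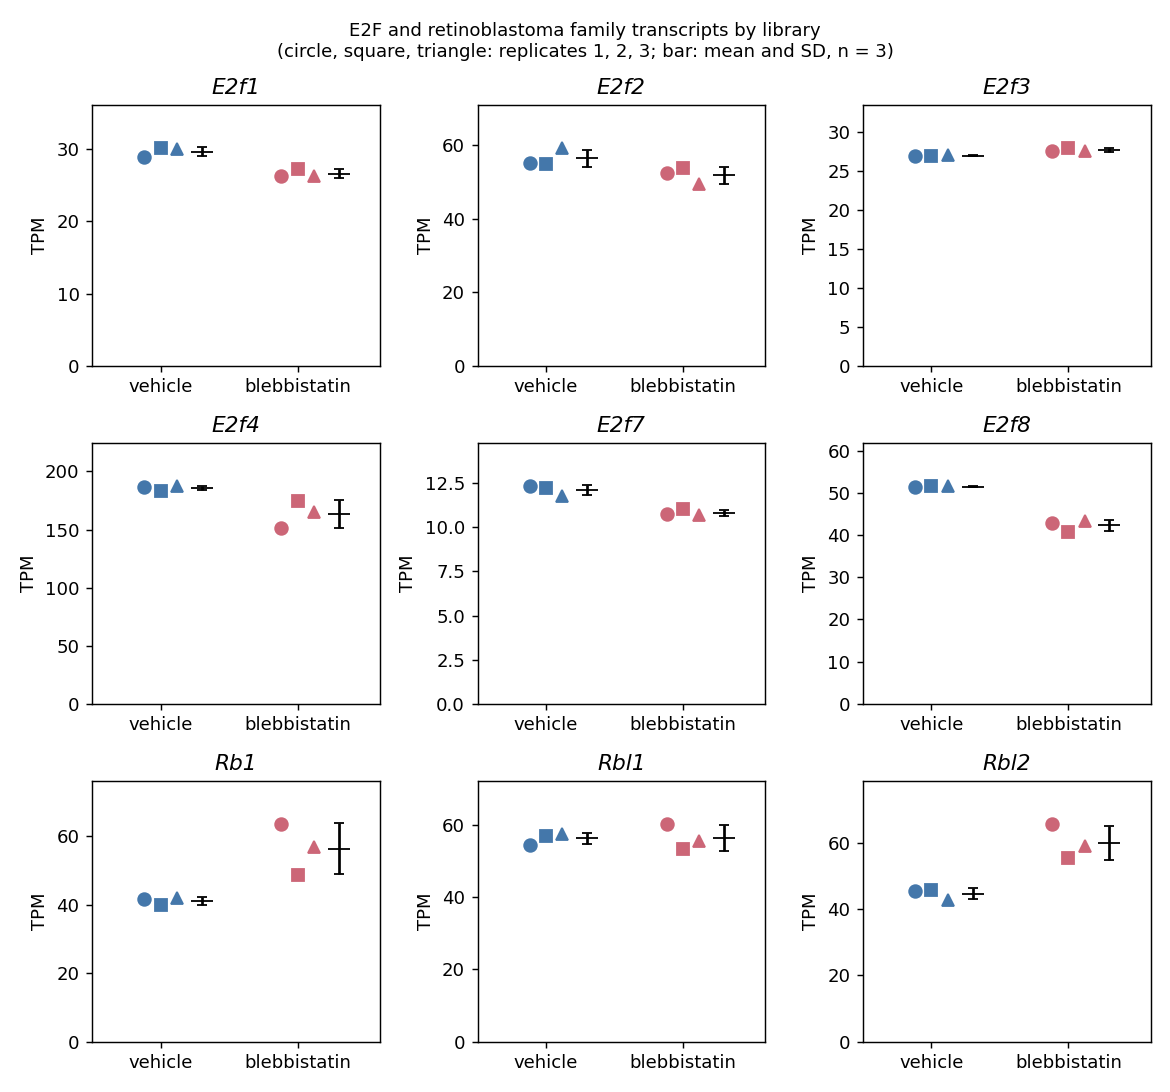
TPM of each member in the 3 vehicle and 3 blebbistatin libraries, on axes from 0, with the mean and SD (n = 3) beside the points. Rbl2 and Rb1 are higher in every blebbistatin library, E2f8 is lower in every one, and Rbl1 overlaps.

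Libraries of the same group had Pearson correlations of log2(TPM + 1) of 0.990 to 0.991 (vehicle) and 0.983 to 0.989 (blebbistatin), against 0.978 to 0.988 between the groups. The highest ratio of read coverage to FPKM, which grows with the number of fragments, was 5.67 to 5.98 in vehicle and 5.84 to 5.95 in blebbistatin libraries, so depths overlapped. The CD8 T cell markers were high in both groups, with Cd8a, a chain of the CD8 coreceptor, at 412 ± 3.01 and 429 ± 3.49 TPM, and with the receptor chain Cd3e at 315 ± 25.3 and 302 ± 9.21 TPM (± here and below gives the SD of 3 libraries). Of the 8 markers 1 passed: Thy1, a surface protein of T cells and the highest of them, fell from 1416 ± 21.4 to 1169.7 ± 36.01 TPM (limma, adjusted p = 0.038). Platelet markers moved with the groups: 4 of 6 tested of 8 rose, and the sum of the 8 was 50.9 to 60.0 TPM with vehicle and 113 to 131 TPM with blebbistatin. Of 9 B cell markers 4 were tested and 2 rose, Igkc from 9.22 ± 1.40 to 16.6 ± 0.524 TPM and H2-Eb1 from 8.29 ± 1.40 to 20.04 ± 2.76 TPM. The sums of the list, 522 to 539 and 516 to 543 TPM, were mostly Ighm (499.96 ± 7.77 and 477 ± 12.6 TPM), and Cd79a, Ms4a1, Pax5 and Ebf1 were among those under the minimum level. Among markers of myeloid cells 2 of 7 were tested, of neutrophils and mast cells 3 of 7, and of NK cells 2 of 5. Of CD4 and regulatory T cell markers 2 of 4 were tested, and of erythroid markers 1 of 5. In these lists 0 tested genes passed limma, with 1, 1, 2, 0 and 0 at an unadjusted p under 0.05, against 22.9% of all tested genes. Cd68 (6.14 ± 0.938 and 9.25 ± 0.658 TPM) and Tyrobp (1.18 ± 0.222 and 2.51 ± 0.612 TPM) were higher without overlap, Eomes and Mpo lower without overlap. S100a9 and Ly6g were at 0 in every library. The part of these other cells in the results below was not tested. In such bulk samples fewer cells in cycle and less RNA per cell cannot be told apart.

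Gene positions are those of the deposited tables, on GRCm38 (mm10). Among the activators, E2f1 (chr2:154559407-154569892), which drives S phase entry, stood at 28.9, 30.1 and 30.0 TPM with vehicle and at 26.2, 27.3 and 26.3 TPM with blebbistatin. All 3 treated libraries were below all 3 vehicle libraries, by little more than the spread within a group. The log2 fold change was -0.15 with an SE of 0.06 (limma, adjusted p = 0.20), and with trends over length and GC removed it was -0.02. E2f2 (chr4:136172394-136196057), an activator that is also known to restrain T cell proliferation in mice, stood at 55.0, 54.8 and 59.1 TPM with vehicle and 52.3, 53.8 and 49.3 TPM with blebbistatin. The highest treated library lay just under the lowest vehicle library, with a log2 fold change of -0.12 (95% interval -0.27 to 0.03) and an adjusted p of 0.30 by limma, and it was -0.06 after the length and GC correction.

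E2f3 (chr13:29906575-29985668), whose gene makes a long activator and a shorter form from separate starts, was the steadiest member. Its vehicle values were 26.9, 26.9 and 27.0 TPM and its blebbistatin values 27.6, 27.9 and 27.5 TPM. These do not overlap because the libraries of a group were so close, yet the difference was 0.04 on the log2 scale (95% interval -0.10 to 0.17, adjusted p = 0.73 by limma). Gene totals cannot tell its forms apart. The summed level of the 3 activators was 112.9 ± 2.77 TPM with vehicle and 106 ± 2.96 TPM with blebbistatin.

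E2f4 (chr8:105297663-105305369), the repressor E2F of resting and early cycling cells, had the highest level of the members. It stood at 186, 184 and 187 TPM with vehicle and at 151, 175 and 165 TPM with blebbistatin. The treated libraries were all lower but ranged far more widely, with an SD of 7.33% of the mean against 1.08% in vehicle. The log2 fold change was -0.18 (SE 0.06, 95% interval -0.33 to -0.04), which did not pass (adjusted p = 0.16 by limma), and it was -0.09 after the length and GC correction. E2f4 made up 51.1% to 51.7% of the summed TPM of the 6 E2F members with vehicle and 48.6% to 52.1% with blebbistatin, so its share overlapped between the groups.

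Of the atypical repressors, which bind DNA through their own paired DNA-binding domains and damp E2F targets late in S phase, E2f8 (chr7:48866429-48881596) came closest to passing among the members that did not. It stood at 51.3, 51.5 and 51.6 TPM with vehicle and at 42.8, 40.7 and 43.3 TPM with blebbistatin. The vehicle libraries lay within 1 TPM of each other and every treated library was lower. The mean was 17.9% below vehicle, with a log2 fold change of -0.28 (SE 0.06, 95% interval -0.41 to -0.15) and an adjusted p of 0.058 by limma. Blebbistatin 2, which lies nearest to vehicle for Rbl2, Rb1 and E2f4, was the lowest library for E2f8. Exons of the antisense transcript Gm2788, itself at 0.234 to 0.780 TPM, cover 11.2% of the E2f8 exon length.

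E2f8 passed with protein-coding genes only (adjusted p = 0.047 by limma), with median-ratio scaling (0.047), with coverage in place of TPM (0.038) and after the length and GC correction (0.023). Without blebbistatin 2 it passed as well (adjusted p = 0.047 by limma), while without the other libraries, 1 at a time, adjusted p lay between 0.076 and 0.19. E2f7 (chr10:110745439-110787384), its closest relative and the lowest member by TPM, stood at 12.3, 12.2 and 11.8 TPM with vehicle and 10.7, 11.04 and 10.7 TPM with blebbistatin. Its groups did not overlap either, with a log2 fold change of -0.15 (95% interval -0.32 to 0.02, adjusted p = 0.27 by limma). The summed level of both genes was 63.4 to 63.8 TPM with vehicle and 51.7 to 54.0 TPM with blebbistatin.

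**Figure D2:**
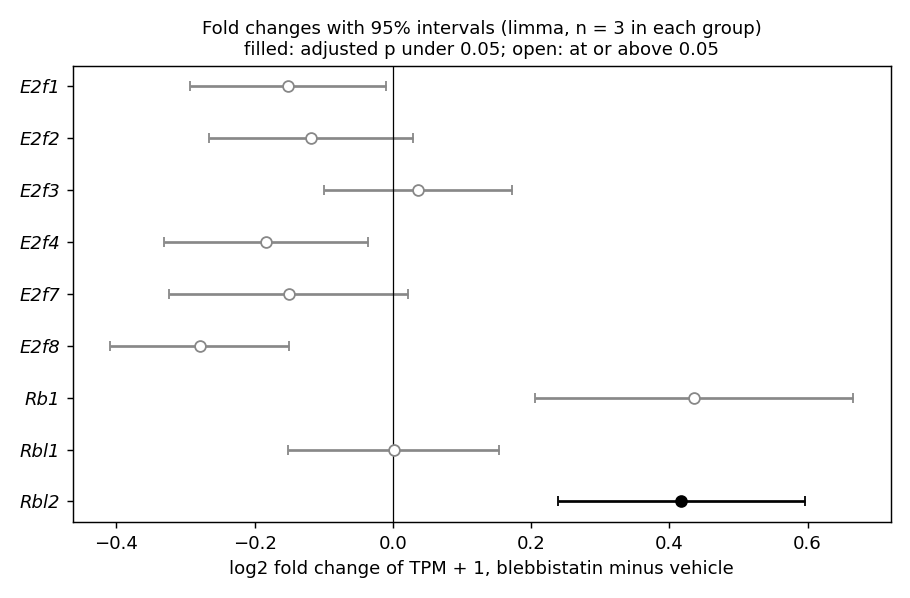
Log2 fold change of TPM + 1, blebbistatin minus vehicle, for each member with its 95% interval from limma (n = 3 in each group). Rbl2, the filled point at 0.42, passed, and E2f1, E2f4, E2f8 and Rb1 have intervals clear of 0 without passing the adjustment.

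Among the pocket proteins, Rbl2 (chr8:91070057-91123844) codes for p130, which pairs with E2F4 in the DREAM complex and is abundant in quiescent cells. It stood at 45.4, 45.9 and 42.7 TPM with vehicle and rose to 65.7, 55.6 and 59.1 TPM with blebbistatin. Every treated library was above every vehicle library, and blebbistatin 1 was the highest. The mean was 34.6% above vehicle, with a log2 fold change of 0.42 (SE 0.08, 95% interval 0.24 to 0.60) and an adjusted p of 0.048 by limma. Its read coverage, the mean depth over the gene before scaling to library size, was 75.7 to 78.0 with vehicle and 101.6 to 111 with blebbistatin.

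The Rbl2 call lay at the threshold: it was lost with median-ratio scaling and with quantile normalization (adjusted p = 0.054 in both, by limma), with no mean-variance trend (0.079) and with no minimum level (0.095). With a block for replicate number it was lost as well (adjusted p = 0.14 by limma). Leaving out 1 library gave an adjusted p of 0.17, 0.15 and 0.17 without vehicle 1, 2 and 3, and of 0.064, 0.023 and 0.17 without blebbistatin 1, 2 and 3, with log2 fold changes of 0.35 to 0.47. Exons on the opposite strand cover 20.97% of the Rbl2 exon length, from Aktip and from Gm45464, for which no value is used here. The labels name the TruSeq RNA Sample Prep kit v2, a kit known not to mark strand. Aktip stood at 15.3 ± 0.484 and 16.5 ± 1.40 TPM (log2 fold change 0.10, adjusted p = 0.51 by limma).

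Rbl1 (chr2:157145893-157204534), the gene of p107, the pocket protein that is made in cycling cells, was at 54.5, 56.8 and 57.5 TPM with vehicle and at 60.2, 53.2 and 55.6 TPM with blebbistatin. Its groups overlapped, and the difference was 0.00 on the log2 scale with a 95% interval of -0.15 to 0.15. The interval still allows a change of that size in either direction.

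Within a library the balance of both genes differed between the groups. The ratio of Rbl2 to Rbl1 in TPM was 0.833, 0.808 and 0.743 with vehicle and 1.09, 1.04 and 1.06 with blebbistatin, so Rbl1 was the higher of the pair in all 3 vehicle libraries and Rbl2 in all 3 treated ones. By read coverage the ratio was 0.617 to 0.703 with vehicle and 0.882 to 0.896 with blebbistatin, so the rise of the ratio was there but Rbl1 stayed the higher gene in all 6 libraries. Which of both transcripts was the more abundant therefore turned on the measure, and the ratio is given without a test because it repeats the values of its members.

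**Figure D3:**
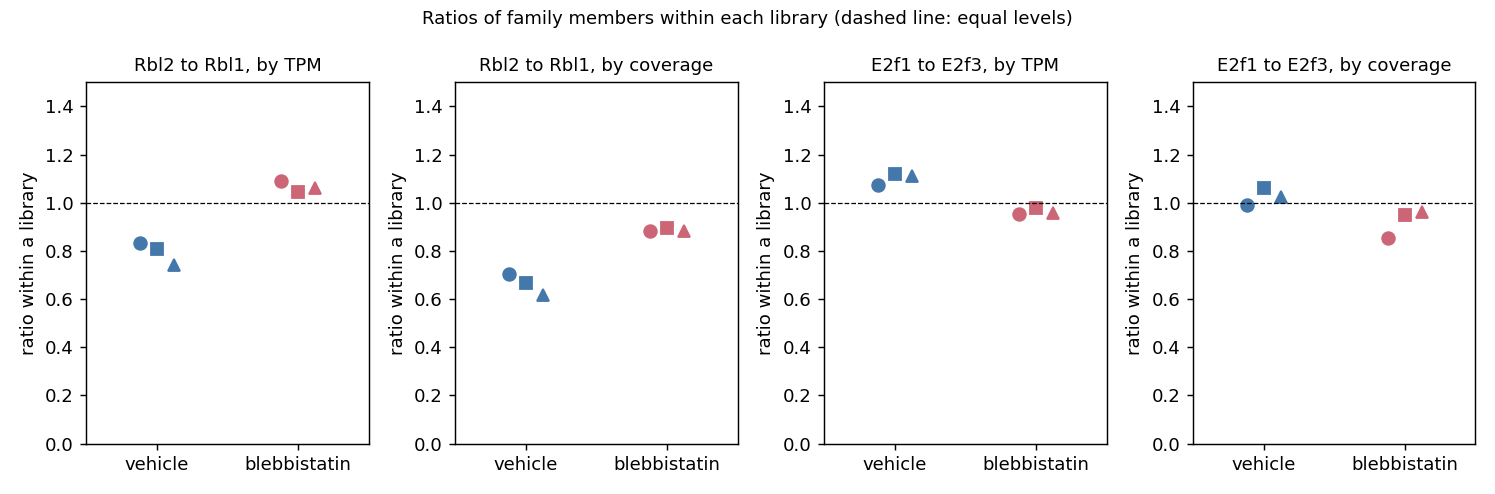
Ratio of Rbl2 to Rbl1 and of E2f1 to E2f3 within each library, by TPM and by read coverage, on axes from 0 with equal levels as a dashed line. Rbl2 to Rbl1 is higher in the 3 blebbistatin libraries by both measures and crosses 1 only by TPM; E2f1 to E2f3 is lower in them by both.

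Rb1 (chr14:73183673-73325822), the retinoblastoma gene itself, stood at 41.7, 39.8 and 41.9 TPM with vehicle and at 63.5, 48.6 and 56.8 TPM with blebbistatin. All treated libraries were higher, with the widest spread of any member, an SD of 13.2% of the mean. The log2 fold change was 0.44 (SE 0.10, 95% interval 0.21 to 0.67) and did not pass (adjusted p = 0.079 by limma). Without blebbistatin 2 it was 0.54 (adjusted p = 0.020 by limma), while without the other libraries, 1 at a time, adjusted p lay between 0.11 and 0.22. The summed level of the 3 pocket protein genes was 142 TPM in vehicle 1, 142.5 in vehicle 2 and 142.0 in vehicle 3, against 189, 157 and 171.5 TPM in blebbistatin 1, 2 and 3. Without Rb1 the sum was 100.9 ± 1.53 and 116 ± 8.71 TPM.

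The TPM of Rb1 is uncertain as a level. Its read coverage was only 4.97 to 8.17, against 414 to 529 for E2f4, and its ratio of coverage to FPKM, 0.248 to 0.281, was lower than that of all but 1.05% of tested genes. For the other members this ratio was 2.58 to 5.98. The annotation lists 6 Rb1 transcripts, of which the coding one has 4656 bases and Rb1-206 only 408. All 408 bases of Rb1-206 lie within an exon of Lpar6, a receptor gene in an Rb1 intron on the opposite strand, and 488 other exon bases of Rb1 overlap Rcbtb2, so 14.9% of its exon length is shared. Lpar6 stood at 5.33 ± 0.604 and 5.90 ± 0.699 TPM and Rcbtb2 at 24.5 ± 0.920 and 23.0 ± 0.905 TPM, and neither passed (adjusted p = 0.56 and 0.47 by limma). The part of these shared exons in the Rb1 value was not tested. By coverage alone Rb1 was at 5.16 ± 0.314 and 7.33 ± 0.829, and the log2 fold change with coverage in place of TPM was 0.36 (adjusted p = 0.12 by limma).

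In order of level per length with vehicle, E2f4 (186 ± 2.01 TPM) was followed by E2f2 (56.3 ± 2.42) and Rbl1 (56.3 ± 1.54), which could not be ranked. Then came E2f8 (51.5 ± 0.156), Rbl2 (44.7 ± 1.74), Rb1 (41.1 ± 1.14), E2f1 (29.7 ± 0.662), E2f3 (26.9 ± 0.0456) and E2f7 (12.1 ± 0.284), each above the next in 3 of 3 libraries with no overlap. With blebbistatin E2f4 (164 ± 12 TPM) still led, and Rbl2 (60.1 ± 5.15), Rbl1 (56.4 ± 3.56), Rb1 (56.3 ± 7.44) and E2f2 (51.8 ± 2.33) formed a group in which neighbours overlapped. E2f8 (42.3 ± 1.36), E2f3 (27.6 ± 0.207), E2f1 (26.6 ± 0.582) and E2f7 (10.8 ± 0.186) followed without overlap. E2f1 and E2f3 thus changed places by TPM: their ratio was 1.07 to 1.12 with vehicle and 0.952 to 0.979 with blebbistatin. By coverage that ratio was 0.990 to 1.06 and 0.854 to 0.961, with vehicle libraries on either side of 1. The place of Rb1 in both orders holds for TPM only, which is uncertain for this gene. By read coverage Rb1 was the lowest member, at 5.16 ± 0.314 with vehicle and 7.33 ± 0.829 with blebbistatin. E2f7, the next lowest by coverage, was at 15.9 ± 0.657 and 15.0 ± 0.442.

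Among 10133 other genes that averaged 5 TPM or more, those whose centred log2(TPM + 1) profile over the 6 libraries was most like that of Rbl2 were Pmaip1, which codes for the death-promoting BH3 protein NOXA, Itga4, an integrin chain, and Clk1, a kinase of splicing factors. Their root mean square differences from Rbl2 were 0.0232, 0.0277 and 0.0288. That all rose was fixed by this choice. Pmaip1 went from 34.9 ± 0.951 to 48.2 ± 3.56 TPM, Itga4 from 19.6 ± 0.260 to 27.1 ± 2.38 TPM and Clk1 from 89.9 ± 5.003 to 118 ± 8.65 TPM.

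The genes around the family were counted in 10 lists, of which 131 of 134 genes were tested, with 0 higher and 3 lower by limma (against 1.40% higher and 0.426% lower among all tested genes) and 47 at an unadjusted p under 0.05 (against 22.9% of all tested genes). The groups did not overlap for 48 genes that were lower and 10 that were higher, against 13.0% lower and 18.0% higher among all tested genes. The same 3 shares are the background of the counts for each list below. The share of all tested genes with a fold change below 0 was not counted, and their median log2 fold change was 0.03. The relatives outside the members were E2f6, a repressor that acts without pocket proteins, at 35.3 ± 1.47 and 31.7 ± 2.09 TPM, and E2f5, a p130-binding repressor, at 7.16 ± 0.403 and 7.89 ± 1.34 TPM, and neither passed (adjusted p = 0.25 and 0.63 by limma). Tfdp1, the main DP partner, was at 456 ± 5.72 and 439 ± 2.94 TPM, more than any E2F member, and Tfdp2 at 13.0 ± 3.11 and 16.8 ± 2.34 TPM. Neither DP gene passed limma, and 0 of both had an unadjusted p under 0.05.

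Of the 8 genes of the MuvB core and its MYB and FOXM1 partners 1 fell and 7 did not pass. Mybl2, which codes for B-MYB, the partner that takes over MuvB when p130 and E2F4 leave it, fell from 70.9 ± 1.48 to 54.5 ± 2.30 TPM, by -0.37 on the log2 scale with an SE of 0.06 (limma, adjusted p = 0.033). Its relative Mybl1 was at 9.99 ± 0.831 and 14.4 ± 1.65 TPM, with no overlap (adjusted p = 0.079 by limma). The core subunits Lin9, Lin37, Lin52, Lin54 and Rbbp4 and the factor Foxm1 overlapped between the groups, with Rbbp4 at 150.2 ± 1.18 and 162 ± 14.6 TPM and Foxm1 at 59.9 ± 2.68 and 55.4 ± 6.92 TPM. The Mybl2 call was lost with no mean-variance trend, with no minimum level, with a block for replicate number and without each single library except blebbistatin 2.

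Of 8 tested kinases and cyclins that phosphorylate pocket proteins 0 passed limma, with 5 at an unadjusted p under 0.05, 4 lower and 1 higher. The lower ones were Ccne1, a cyclin of the G1/S step, at 116 ± 1.196 and 100.04 ± 2.63 TPM, its kinase Cdk2 at 87.7 ± 2.54 and 76.5 ± 0.583 TPM, the D-cyclin kinase Cdk4 at 284 ± 9.29 and 258 ± 2.66 TPM, and the S phase cyclin Ccna2 at 225 ± 21.2 and 186 ± 9.15 TPM. Ccnd2, the D-type cyclin with the highest mean, was at 192 ± 11.8 and 217 ± 6.63 TPM. Ccnd3 varied too widely among vehicle libraries to compare (164 ± 68.6 and 111 ± 25.7 TPM), and Ccnd1 stayed under 1 TPM on average. Adjusted p over the tested genes of the list lay between 0.084 for Ccne1 and 0.96 for Ccne2, by limma.

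Among 5 tested CDK inhibitors Cdkn2a, the locus of p16 and ARF, fell from 5.91 ± 0.840 to 2.76 ± 0.404 TPM (adjusted p = 0.037 by limma), and 4 did not pass. Cdkn1a, the gene of p21, was at 300.4 ± 9.61 and 369 ± 33.2 TPM, and Cdkn1b, the gene of p27, at 33.8 ± 0.357 and 38.0 ± 2.40 TPM, both without overlap (adjusted p = 0.092 and 0.21 by limma). Cdkn2c, the gene of p18, was at 36.9 ± 1.08 and 29.0 ± 5.60 TPM, lower without overlap. Cdkn2d, the gene of p19, was at 75.1 ± 1.87 and 66.4 ± 11.4 TPM, with overlap. Neither of these INK4 genes passed. An unadjusted p under 0.05 was found for 4 of the 5 tested inhibitors, 2 higher and 2 lower. Cdkn1c and Cdkn2b were below the minimum level. The Cdkn2a call was lost after the length and GC correction, with no minimum level and with a minimum mean of 5 TPM (its mean was 4.34 TPM). It was also lost with a block for replicate number and without each single library except blebbistatin 2.

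Of 11 corepressors that pocket proteins recruit 0 passed limma, with 5 at an unadjusted p under 0.05, 4 higher and 1 lower. Hdac1, a histone deacetylase and the highest of them, was at 313 ± 3.56 and 338 ± 7.07 TPM (adjusted p = 0.19 by limma). Of 7 genes of the E2F6 complex 0 passed limma, with 3 at an unadjusted p under 0.05, and Cbx3, the highest, was at 292 ± 4.50 and 299 ± 29.2 TPM. Of 8 genes of E2F turnover 0 passed limma, with 4 at an unadjusted p under 0.05 and all 8 fold changes below 0 (median -0.20). The groups did not overlap for 4 of these genes, all lower, and overlapped for 4 (Skp2, Cdc20, Fzr1 and Cul4a). In that list Cks1b, a subunit of the SKP2 ubiquitin ligase, was at 265 ± 5.75 and 239 ± 11.4 TPM, Fbxo5, an inhibitor of the anaphase-promoting complex, at 92.0 ± 1.64 and 79.5 ± 2.40 TPM, and Ccnf, the cyclin of a ubiquitin ligase for E2F proteins, at 76.8 ± 0.863 and 67.1 ± 1.32 TPM.

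Of 50 E2F targets of the G1/S step, all tested, 0 passed limma, with 16 at an unadjusted p under 0.05, 15 lower and 1 higher. The list median was -0.11, with 41 values below 0 and 9 above, and the groups did not overlap for 21 lower and 1 higher gene (against 13.0% and 18.0% of all tested genes, with 22.9% at an unadjusted p under 0.05). The sum of the 50 genes was 7588 to 7730 TPM with vehicle and 6955 to 7161 TPM with blebbistatin. Pcna, the replication clamp and the highest of them, was at 944 ± 7.50 and 830.4 ± 17.4 TPM (log2 fold change -0.19, adjusted p = 0.078 by limma). Slbp, which binds the stem-loop of histone messenger RNA and was chosen after its values were seen, was at 178 ± 2.64 and 149 ± 6.44 TPM (adjusted p = 0.058 by limma). Ezh2, a histone methyltransferase also chosen after its values were seen, was the 1 gene of the list with higher values in every blebbistatin library, at 223 ± 4.38 and 254 ± 20.4 TPM. After the length and GC correction Atad2, Hells, Nasp, Pcna, Rrm2 and Slbp of this list passed limma, with protein-coding genes only Slbp did, and without blebbistatin 2 Cdt1, Mcm2, Pcna and Slbp did.

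Of 30 DREAM targets of the G2/M step 1 fell and 29 did not pass. Cdca8, a subunit of the chromosomal passenger complex, fell from 169 ± 2.94 to 137 ± 6.34 TPM (log2 fold change -0.31, adjusted p = 0.045 by limma). The list median was -0.03, with 21 values below 0 and 9 above, 8 at an unadjusted p under 0.05, all lower, and 11 lower and 1 higher gene without overlap (against 22.9%, 13.0% and 18.0% of all tested genes). Top2a, the topoisomerase of dividing cells and the highest of the list, was at 724 ± 30.0 and 726 ± 63.8 TPM. The Cdca8 call was lost with quantile normalization, with no mean-variance trend, with no minimum level, with a block for replicate number and without each single library except blebbistatin 2.

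**Figure D4:**
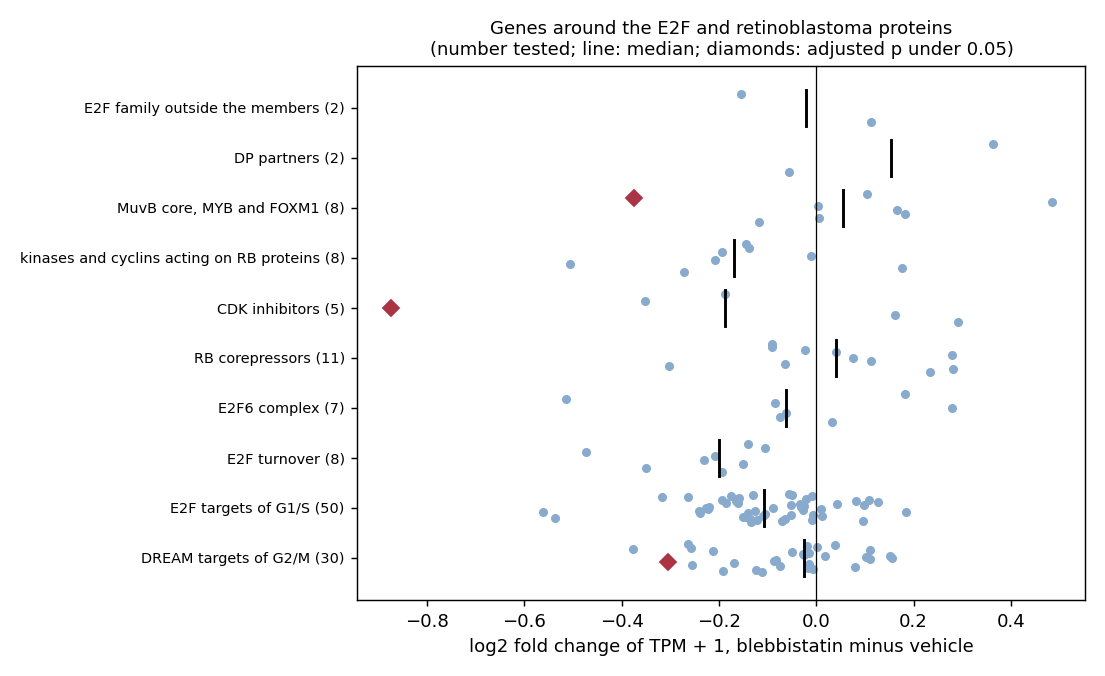
Log2 fold change of TPM + 1, blebbistatin minus vehicle, of every tested gene of the 10 lists, with the list median as a line. The 3 diamonds, Mybl2, Cdkn2a and Cdca8, passed limma and all lie below 0, and the medians run from -0.20 for E2F turnover to 0.15 for the DP partners.

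**Figure D5:**
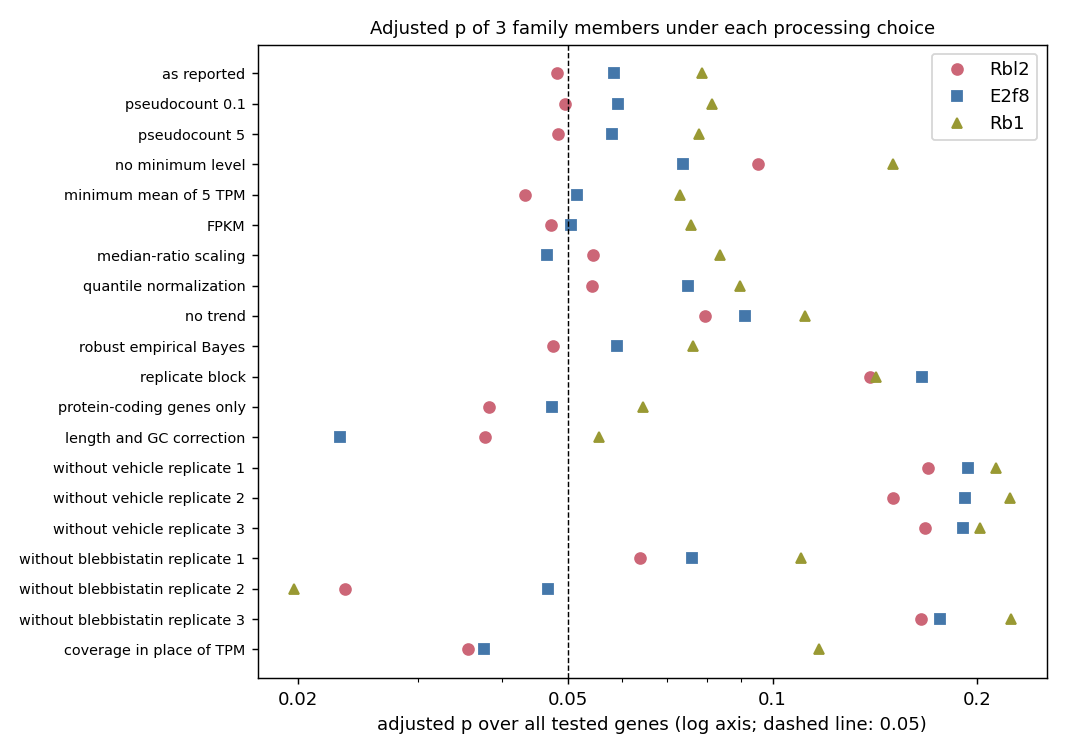
Adjusted p by limma of Rbl2, E2f8 and Rb1 as reported and under each of the 19 alternatives, on a log axis with 0.05 as a dashed line. Rbl2 is left of the line in 9 alternatives, E2f8 in 5 and Rb1 in 1.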

How the data were processed

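Messenger RNA was measured in 3 vehicle and 3 blebbistatin libraries, grouped by the labels. Per the labels' protocols, libraries were made with a TruSeq kit and sequenced on a NovaSeq instrument. The submitters' processing notes name build mm10 and the tools StringTie 1.3.4, HISAT2 2.1.0 and DESeq2 1.22.2, without their roles or settings. The TPM values, deposited by the authors, sum to 1000000 per library. The FPKM values were made by the authors too. Coverage, a deposited signal named so per the file headers, is taken as read depth along a gene and is not scaled to library size. These are not counts, so no count test was run. In 12 to 14 rows per library a gene stands at more than 1 place; no member is among them.

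Genes averaging 1 TPM or more were tested with limma 3.58.1 in R 4.3.3 on log2(TPM + 1), with a trend of variance over level, and p-values were adjusted by Benjamini-Hochberg with a threshold of 0.05. The procedure was tested on simulated data, where it called 66 of 100 genes changed 1.5-fold, 88 of 100 changed 2-fold and 5 of 13172 unchanged genes. Changes as small as those of the members can thus go uncalled. Lists are described by counts, with no set test. Members and lists were chosen with earlier results of these data known. Named genes are the members, from each list up to 3 genes that passed or else the highest one, any gene of a list of up to 11 described by role, and the 3 genes with a profile most like a member that passed. Exons and lengths came from GENCODE M21 (GRCm38), which held 99.1% of gene identifiers, and upstream sequences from RefSeq (GRCm38.p6). Alternatives were another pseudocount, minimum level, scaling, limma setting, gene set, FPKM, a length and GC correction, a replicate block and leaving out each library; coverage in place of TPM was chosen after the data were seen. Figures were drawn with matplotlib 3.10.9.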

Additional observations from a re-analysis of the deposited data

How the results depend on the processing

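Of the 9 members, E2f1, E2f2, E2f4, E2f7, E2f8, Rb1 and Rbl2 kept their direction in all 19 alternatives. Rbl2 passed in 9 of them, E2f8 in 5, Rb1 in 1 and the other members in 0. Values of Rbl1 and E2f3 lie near 0 and changed sign: Rbl1 was below 0 with FPKM (-0.0053), median-ratio scaling (-0.0289), the length and GC correction (-0.13), coverage in place of TPM (-0.0022), without vehicle 1 (-0.02) and without blebbistatin 1 (-0.0467), against 0.0409 without blebbistatin 2, and E2f3 with the length and GC correction (-0.0165) and coverage (-0.0045). The mean log2 ratio of Rbl2 to Rbl1 in blebbistatin libraries was 0.09 by TPM and -0.17 by coverage.

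The count of genes that passed was 244, and it was 49 with no minimum level, 160 with no trend, 437 after the length and GC correction and 0 with the replicate block. The members that passed numbered 1, and 0 with no minimum level, quantile normalization, no trend or the replicate block, and 2 (E2f8 and Rbl2) with protein-coding genes only, the length and GC correction or coverage. With median-ratio scaling the 1 member that passed was E2f8, not Rbl2. Of the list genes 3 passed, and 0 with no minimum level or the replicate block, 1 with no trend and 12 after the length and GC correction. Of these 12, 1 was higher and 11 were lower (besides G1/S targets, Mybl2 and Cdca8, they were Cdk2, Ccna2, Cdkn1a and Fbxo5). That correction moved the split of all calls from 187 higher and 57 lower to 264 and 173. Leaving out 1 library gave 3 to 1090 genes, 0 to 3 members and 0 to 16 list genes. Without blebbistatin 2 there were 496 higher and 594 lower genes, and E2f8, Rb1 and Rbl2 passed. Of the list genes 2 were then higher and 14 lower. The cause of these shifts was not tested.

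Same-numbered libraries did not deviate together (correlations of 0.011, -0.037 and -0.034), so no shared replicate effect was visible. The labels do not say if the numbers pair the samples, and these correlations cannot settle it. With the replicate block 0 genes passed and Rbl2 had an adjusted p of 0.14 by limma. Counts of fragments are not used here, and the coverage of Rb1 was only 4.97 to 8.17.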
